A study of Daphnia magna with 48 samples.

Results

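Among 16 libraries of Daphnia magna taken after 1 day of exposure, 6 stood apart from the other 10 in whole-body expression. They did so along the main axis of variation once treatment means were removed, and overlapped with the 10 when those means were left in. They came from every treatment. The 6 were copper replicates 1 and 3, arsenic replicates 2 and 3, mixture replicate 1 and control replicate 4. They are called the split-off libraries here, and the other 10 the remaining day-1 libraries. The 6 make up 6 of 48 libraries in the series. The 6 were chosen by their expression values on day 1, so every difference between the 6 and the 10 on day 1 is a description and carries no test. The other 32 libraries, from days 2 and 4, played no part in forming the grouping, and tests are given there.

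RNA was taken from whole bodies of animals kept in culture medium with daily feeding and exposed to copper, to arsenic, to a mixture of both metals, or to neither (controls), for 1, 2 or 4 days, with 4 libraries in each of 12 groups. The title names a field population, and all groups share the culture. The sources used here give no dose, genotype, age or number of animals per library. Separate cultures are not stated for the 4 libraries of a group. The p-values therefore weigh differences against library-to-library spread alone, and that spread may be technical.

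Daphnia magna is a small planktonic crustacean that filters algae from fresh water and reproduces mostly by cloning, and it is widely used to test the toxicity of metals in water. Copper is an essential trace metal that enzymes of respiration and oxygen defence need and that becomes toxic in excess. Arsenic has no such role, and its compounds bind thiol groups of proteins or take the place of phosphate. The gene identifiers of the deposited table matched 0 entries of the gene reference, so genes are given by identifier, without a name, a function or a sequence.

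Each treatment contributed to both sets. The split-off set took 2 of 4 copper, 2 of 4 arsenic, 1 of 4 mixture and 1 of 4 control libraries. The 6 libraries held 8.49 to 15.05 M counts (M, mega; median 11.9), against 11.4 to 17.3 M (median 14.1) in the 10. Genes without a single count numbered 101 to 479 in the 6, with the highest value in control replicate 4, and 41 to 149 in the 10. The 50 most abundant genes took 18.7% to 22.0% of counts in the 6 and 20.1% to 22.5% in the 10. These ranges overlap on all 3 measures. The TMM factor, which corrects a library's total for the balance of its transcripts, did not overlap. It was 1.06 to 1.10 in the 6 and 0.9998 to 1.04 in the 10, and 0 of 32 later libraries reached the lowest of the 6. The part of depth and of this balance in the gene differences below was not tested.

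Along the main axis of variation on day 1 with treatment means removed, the 6 lay on the same side. This first principal component held 25.5% of the variance over 15112 genes and the second 12.4%. The 6 lay between 8.46 (copper replicate 1) and 65.0 (control replicate 4), and the 10 between -39.1 and -3.10, with control replicate 2 nearest to the 6. With treatment means left in, the first component held 21.7% of the variance and the sets overlapped: arsenic replicate 3 of the 6 lay at 5.26, below control replicate 2 of the 10 at 7.32. By mean correlation with treatment means removed, 15 of 16 libraries were closer to their own set, control replicate 2 being the exception. Removing these means makes libraries of the same treatment correlate negatively on average. Control replicate 4 and mixture replicate 1 have no library of their treatment in their own set, so their closeness to it is partly built in. The 6 were also chosen from these values. With treatment means left in, 13 of 16 were closer to their own set: all of the 10 but only 3 of the 6. Copper replicate 1 and arsenic replicates 2 and 3 were then closer to the 10.

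**Figure D1:**
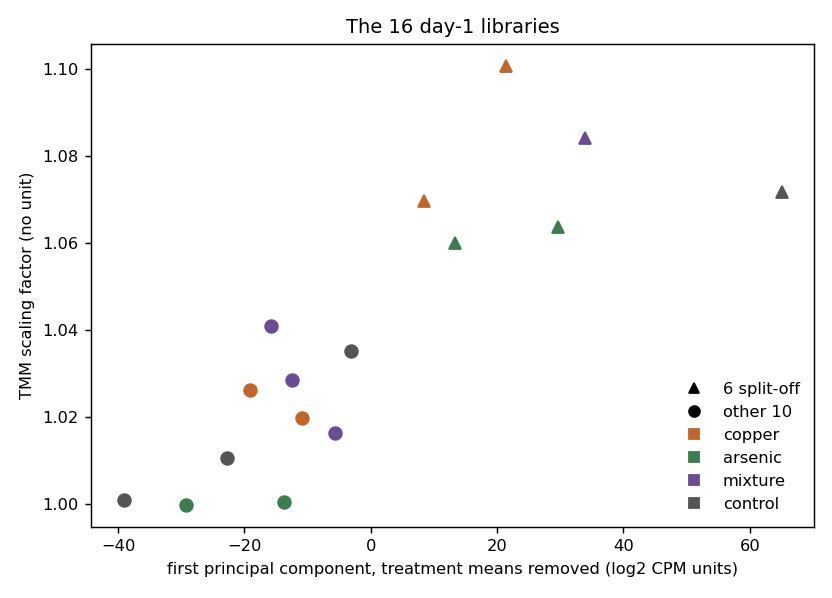
First principal component of the 16 day-1 libraries after removal of treatment means (horizontal, log2 CPM units) against the TMM scaling factor (vertical, no unit); triangles are the 6 split-off libraries, circles the other 10, colours the treatments. The 6 lie at 8.46 or higher and at factors of 1.06 or more, and the 10 at -3.10 or lower and factors of 1.04 or less.

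More genes were low than high in the 6. A gene was taken to set the libraries apart when its level, in TMM-scaled CPM (a gene's counts per M counts of its library), lay outside the whole range of the 10 in all 6 libraries and the fitted fold, with treatment in the model, was at least 2. On that rule 7 genes were higher in the 6 and 33 were lower. The 7 were 0.0463% and the 33 were 0.218% of the genes measured on day 1; the rule used this contrast, so nothing is read from those shares. With library totals alone in place of TMM factors the counts were 12 higher and 20 lower. In whole bodies, fewer cells of a type and less RNA per cell cannot be told apart. At the threshold, the higher genes just inside and just outside had folds of 2.04 and 1.96, and the lower genes 2.002 and 1.99996.

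How many genes met the rule depended on single libraries. The higher count became 17 without copper replicate 3 and 12 without mixture replicate 4, and the lower count became 99 without arsenic replicate 3, 60 without control replicate 2 and 56 without copper replicate 1. Leaving out any other day-1 library kept both counts within 1.5 times. Without control replicate 4, the farthest of the 6, there were 7 higher genes, of which 4 were shared, and 27 lower genes, of which 25 were shared. At a fold of at least 1.5, 71 genes were higher (0.47% of those measured) and 145 lower (0.96%). With no minimum fold, 212 genes (1.4%) were higher and 249 (1.65%) lower in all 6.

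The 2 sides differed in abundance. The 7 higher genes were rare transcripts, averaging 1.99 to 6.28 CPM over all 48 libraries, and their folds ran from 2.04 to 2.71 with a median of 2.09. The 33 lower genes averaged 0.691 to 499 CPM, 13 of them at 10 CPM or more, and their folds ran from 2.002 to 5.12 with a median of 2.43. The fold of 5.12 belonged to a rare transcript at 0.236 ± 0.148 CPM in the 6 and 1.29 ± 0.567 CPM in the 10 (SD, n = 6 and 10). The low-count filter was met in the 6 alone by 7 of 7 higher and 27 of 33 lower genes, and in the 10 alone by 7 of 7 and 33 of 33. With all genes sorted into 4 equal bins of abundance, from the rarest to the most abundant, the bins held 9, 12, 1 and 11 of the 33 lower genes and 3, 4, 0 and 0 of the 7 higher genes.

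Dapma7bEVm028896t1 had the largest fold among the lower genes of at least 10 CPM. It stood at 24.2 and 27.8 CPM in copper replicates 1 and 3, at 27.1 and 43.0 CPM in arsenic replicates 2 and 3, at 46.0 CPM in mixture replicate 1 and at 21.2 CPM in control replicate 4. The remaining day-1 libraries ran from 58.9 to 167 CPM with a median of 92.3 CPM. The highest of the 6 was thus under the lowest of the 10, and the fitted log2 difference was -1.59, a 3.003-fold lower level. Dapma7bEVm028897t1, next in the numbering, ran from 16.2 to 38.6 CPM (median 24.8) in the 6 and from 48.8 to 145 CPM (median 73.0) in the 10, with a log2 difference of -1.52. Over all 48 libraries the log2 levels of these genes had a Pearson correlation of 0.93, and over the 32 later ones 0.84, a description of points that share libraries. Whether they are near copies that share reads cannot be read from the files.

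Dapma7bEVm016193t1 had the largest fold on the higher side. None of the 7 higher genes reached 10 CPM, so this gene and the next were chosen after their values were seen. It stood at 4.16 and 3.44 CPM in copper replicates 1 and 3, at 2.77 and 3.82 CPM in arsenic replicates 2 and 3, at 2.37 CPM in mixture replicate 1 and at 8.46 CPM in control replicate 4, against 0.497 to 2.02 CPM (median 1.85) in the 10. Control replicate 4 was well above the other split-off libraries, and mixture replicate 1 was close to the top of the 10. The log2 difference was 1.44, and 1.12 without control replicate 4. Dapma7bEVm007775t1 ran from 7.67 to 21.4 CPM (median 8.21) in the 6, with control replicate 4 again highest, and from 1.87 to 5.81 CPM (median 4.72) in the 10. Its log2 difference was 1.30, and 1.05 without control replicate 4.

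**Figure D2:**
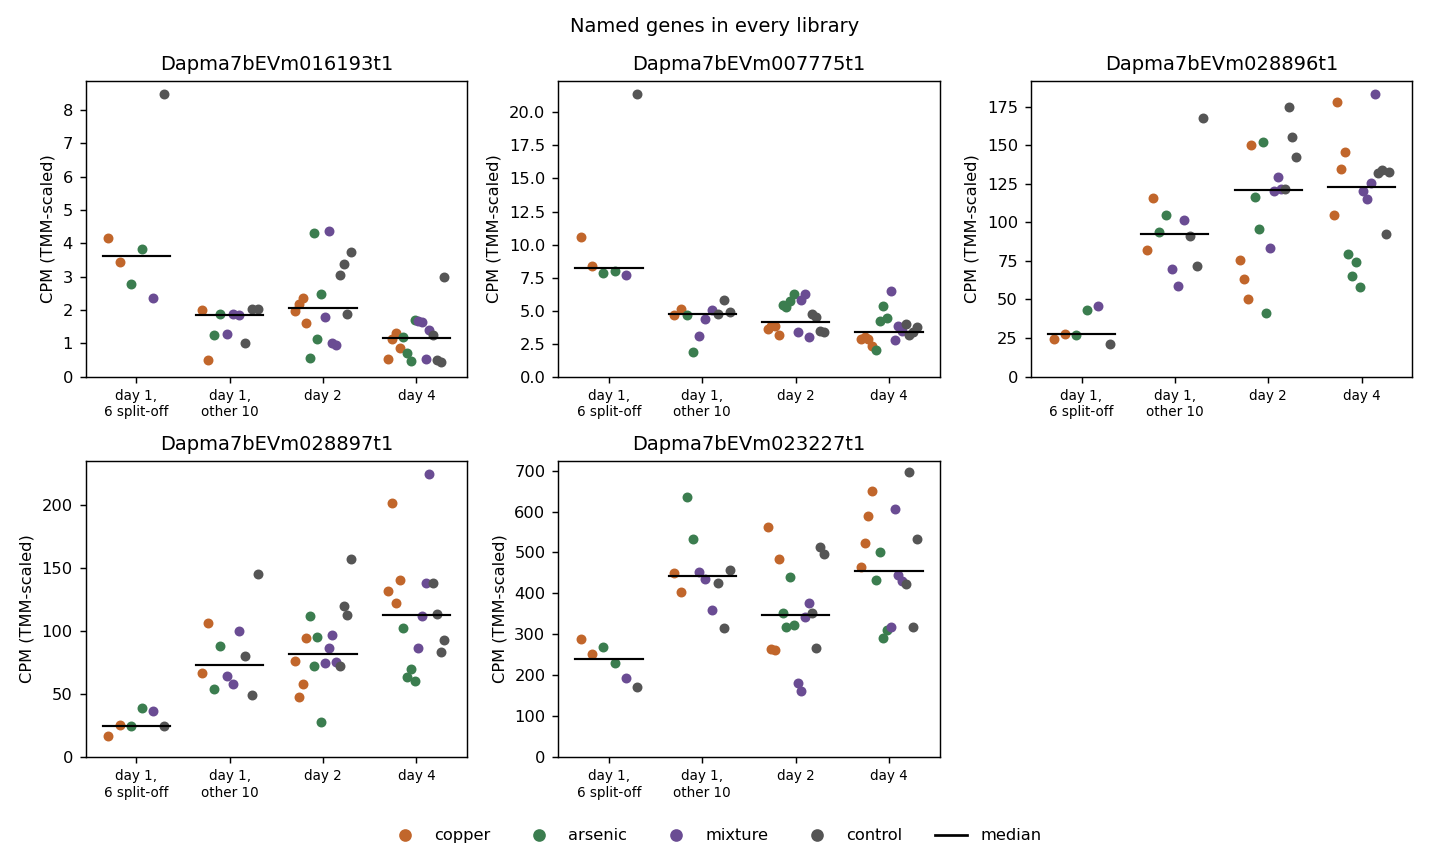
Level of 5 genes in each of 48 libraries (CPM, TMM-scaled, axes from 0); dots are libraries coloured by treatment and black lines are medians. The 6 split-off libraries lie above the other 10 of day 1 for Dapma7bEVm016193t1 and Dapma7bEVm007775t1 and below them for the other genes, while on day 2 their range is reached by 6 libraries for Dapma7bEVm016193t1, 5 for Dapma7bEVm023227t1 and 1 each for Dapma7bEVm028896t1 and Dapma7bEVm028897t1, and on day 4 by 1 for Dapma7bEVm016193t1.

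The difference ran the same way inside every treatment. The median log2 difference of the 33 lower genes, split-off minus remaining libraries of the same treatment, was -0.98 in copper, -1.17 in arsenic, -1.16 in mixture and -1.52 in control libraries. For the 7 higher genes it was 0.92 in copper, 1.12 in arsenic, 0.86 in mixture and 1.47 in control libraries. The rule fixes these signs. Their sizes rest on 2 libraries against 2 in copper and arsenic, and on 1 against 3 in mixture and control. Of the 40 genes, 21 had their most extreme value in control replicate 4, 7 in arsenic replicate 2, 5 in copper replicate 3, 4 in mixture replicate 1, 2 in copper replicate 1 and 1 in arsenic replicate 3. The split-off library nearest to the 10 was most often copper replicate 1 (12 genes) or mixture replicate 1 (11 genes).

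Over the listed genes, libraries of days 2 and 4 mostly lay nearer the remaining 10. The genes were chosen for extreme values in the 6, so libraries outside that choice are likely to lie away from the 6. Whole profiles of the later libraries were not compared with the sets. Averaged over the 33 lower genes, the log2 CPM was 2.19 to 2.87 (median 2.60) in the 6 and 3.46 to 4.26 (median 3.74) in the 10. It was 3.16 to 4.12 (median 3.75) on day 2 and 3.15 to 4.32 (median 3.97) on day 4, so 0 of 32 later libraries came into the range of the 6. Some libraries of both days lay under the lowest of the 10. Averaged over the 7 higher genes, it was 2.63 to 3.53 in the 6 and 1.31 to 2.09 in the 10, then 1.499 to 2.64 on day 2 and 1.17 to 2.55 on day 4. Here 1 of 32 later libraries, mixture replicate 2 of day 2 at 2.64, came into the range of the 6.

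**Figure D3:**
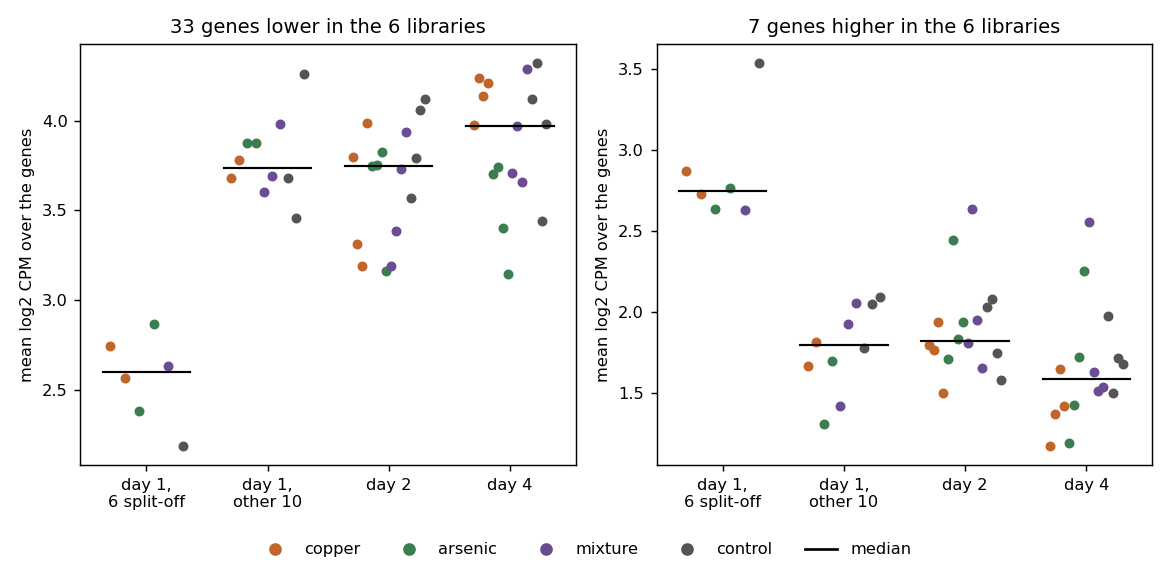
Mean log2 CPM of the 33 lower genes (left) and of the 7 higher genes (right) in each library, by day and set; dots are coloured by treatment and black lines are medians. On the left all day-2 and day-4 libraries lie at 3.15 or higher, above the split-off maximum of 2.87, and on the right 1 day-2 mixture library at 2.64 reaches the split-off range.

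Some later libraries went part of the way. Counting genes that lay on the split-off side of the midpoint between the 2 set means, the 6 had 37 to 40 of 40 and the 10 had 0 to 4. Day-2 libraries had 0 to 18 (median 6) and day-4 libraries 0 to 18 (median 2). The highest counts were 18 in mixture replicate 2 of day 2 and in arsenic replicate 4 of day 4, 16 in arsenic replicate 4 and mixture replicate 1 of day 2, and 15 in copper replicate 3 of day 2. These 5 libraries came from copper, arsenic and mixture groups, which hold most of the later libraries. The 5 were picked by their counts, so nothing is read from their treatments.

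**Figure D4:**
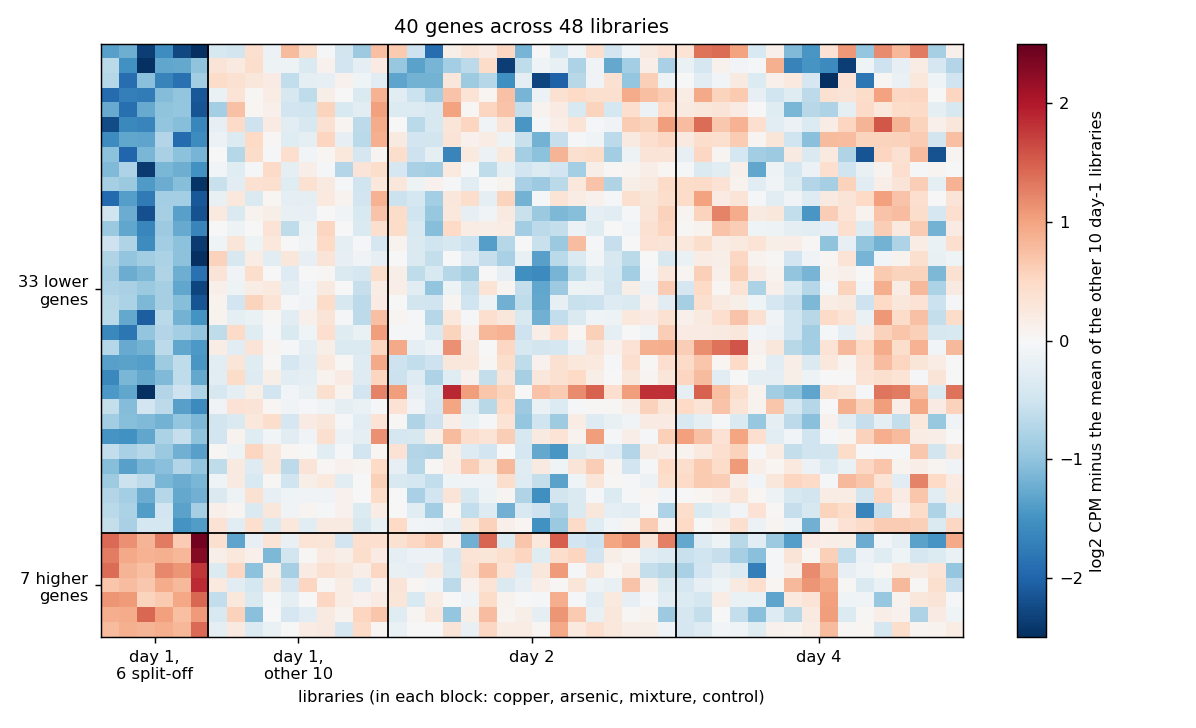
Log2 CPM of 40 genes (rows: 33 lower genes above, 7 higher genes below) in 48 libraries (columns in blocks of 6, 10, 16 and 16), as the difference from the gene's mean over the other 10 day-1 libraries; colours saturate at 2.5 log2 units. The first block is blue for the 33 and red for the 7 throughout, which the choice of genes fixes, while later blocks hold single dark cells and a few mostly blue columns among the 33.

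Gene by gene, the later days lay near the mean of the 10, and day 4 more often past it. On a scale where a gene's mean in the 10 is 0 and its mean in the 6 is 1, the median position of the 33 lower genes was 0.0875 on day 2 and -0.0555 on day 4. For the 7 higher genes it was 0.0633 on day 2 and -0.0976 on day 4. On day 4, 23 of 33 lower genes and 5 of 7 higher genes had a day mean past the mean of the 10, on the side away from the 6, and on day 2 this held for 9 of 33 and 0 of 7. In the wider lists (fold of at least 1.5), 122 of 145 lower and 62 of 71 higher genes had a day mean past that of the 10 on day 4, and 67 of 145 and 27 of 71 on day 2.

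Day 4 was compared with day 2 in the 32 later libraries alone, where no value had been used to choose the lists. Genes low in the split-off set were higher on day 4 than on day 2 more often than they were lower. By edgeR's quasi-likelihood test with Benjamini-Hochberg adjustment over 15459 genes, 8 of the 33 rose and 0 fell, beside 2325 genes (15%) that rose and 2026 (13.1%) that fell among all genes. The median log2 change of the 33 was 0.29, and 28 of them had a positive value, beside a median of 0.00 over all genes. Of the 7 higher genes 0 rose and 1 fell, with a median of -0.16. With all 48 libraries in the fit, the estimate of spread takes in day 1. The 8 then became 2 (6.06% of 33), under the 12.5% of all genes called higher in that fit. That fit has no term for the set, so the gap by which these genes were chosen counts as spread. Fewer calls are thus likely by design. The 8 calls became 5 without control replicate 2 of day 4, copper replicate 2 of day 2 or mixture replicate 1 of day 2. The single call became 2 without arsenic replicate 3 of day 4, mixture replicate 4 of day 2 or mixture replicate 1 of day 4.

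The wider lists leaned the same way. They contain the 2-fold lists by construction, so this was not an independent repeat. Genes of a list were chosen on the same day-1 gap and read in the same libraries. Such genes may move together, so a longer list does not add replicates. How far the genes of a whole list vary together was not tested. Of the 145 lower genes 61 rose on day 4 against day 2 and 1 fell, 129 had a positive value, and the median log2 change was 0.25. Of the 71 higher genes 17 fell and 0 rose, 6 had a positive value, and the median was -0.14. The shares called, 42.1% of 145 higher on day 4 and 23.9% of 71 lower on day 4, stand beside the 15% and 13.1% of all genes given above. With all 48 libraries in the fit these became 29.7% of 145 and 8.45% of 71, beside 12.5% and 11.7% of all genes. The share of the 71 was then under that of all genes, in a fit that again counts the day-1 gap as spread. When the genes were chosen again without control replicate 4 of day 1, 50 of 132 lower genes rose and 10 of 60 higher genes fell. These stand beside the same 15% and 13.1% of all genes, and the medians were 0.25 and -0.14. Of the 132 genes 124 were in the main list, and of the 60 genes 52, so this was hardly a separate choice. The 61 calls ran from 49 to 71 when single libraries were left out. The 17 calls became 9 without copper replicate 3 of day 2 and 11 without arsenic replicate 1 of day 4.

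**Figure D5:**
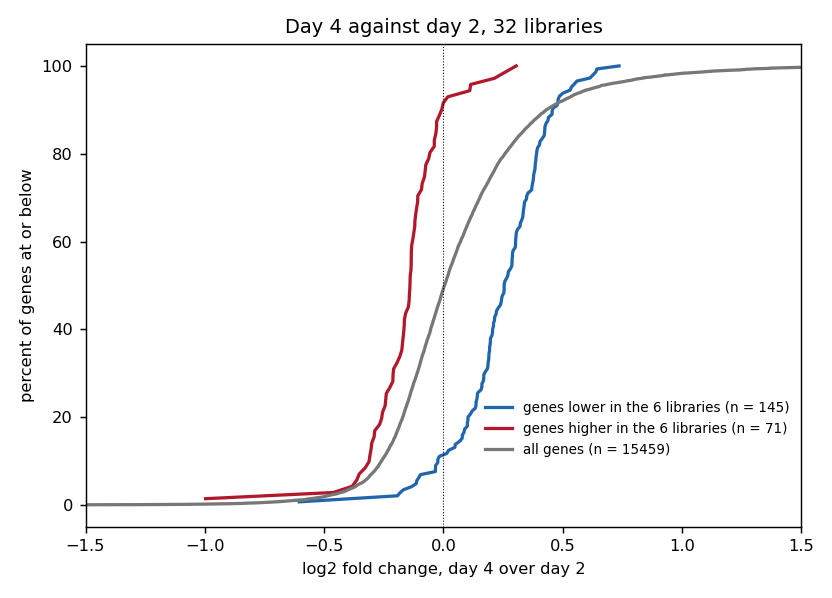
Cumulative share of genes (vertical, percent) by log2 fold change of day 4 over day 2 (horizontal), for the 145 genes lower in the 6 split-off day-1 libraries, the 71 higher in them and all 15459 genes tested; each curve runs over genes of 1 list. The medians are 0.25, -0.14 and 0.00.

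Genes named for this comparison were picked among its called genes, so an adjusted p under 0.05 follows from that choice. Among them, Dapma7bEVm028897t1 ran from 60.2 to 224 CPM (median 112) on day 4 and from 27.9 to 157 CPM (median 81.3) on day 2. The days overlap broadly, and the fitted log2 change was 0.43 (SE 0.15, edgeR adjusted p = 0.0355). That call was lost, at adjusted p of up to 0.0854, without arsenic replicate 2, control replicate 1, copper replicates 2 or 3, or mixture replicate 1 of day 2, and without arsenic replicate 1, control replicates 1 or 2, copper replicate 2 or mixture replicate 4 of day 4. Dapma7bEVm023227t1, which on day 1 ran from 171 to 288 CPM in the 6 and from 316 to 636 CPM in the 10, stood at 292 to 696 CPM (median 454) on day 4 and 161 to 563 CPM (median 348) on day 2. Its log2 change was 0.41 (SE 0.14, edgeR adjusted p = 0.0278), lost at adjusted p of up to 0.061 without control or copper replicate 2 or mixture replicate 1 of day 2, or arsenic, control or mixture replicate 2 of day 4. With all 48 libraries in the fit both calls were lost, at edgeR adjusted p = 0.159 for Dapma7bEVm028897t1 and 0.0597 for Dapma7bEVm023227t1. That fit counts the day-1 gap between the sets as spread.

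Dapma7bEVm016193t1 fell. It ran from 0.428 to 2.97 CPM (median 1.16) on day 4 and from 0.557 to 4.37 CPM (median 2.06) on day 2, where 6 libraries reached the range of the split-off set. The log2 change was -0.997 (SE 0.29, edgeR adjusted p = 0.00974), and the adjusted p was at most 0.0235 with any 1 library left out. For Dapma7bEVm028896t1 the log2 change was 0.05 (SE 0.14, edgeR adjusted p = 0.839), although it stood beside Dapma7bEVm028897t1 on day 1. Its levels were 58.1 to 183 CPM on day 4 and 41.2 to 175 CPM on day 2.

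The change between days was read in each treatment too. Of the 145 lower genes, those called higher on day 4 were 7 in copper, 0 in arsenic, 46 in mixture and 1 in control libraries, with median log2 changes of 0.40, -0.05, 0.50 and 0.16 in the same order. Among all genes the shares called higher were 1.28% in copper, 0.388% in arsenic, 9.27% in mixture and 0.673% in control libraries. Of the 71 higher genes, 3 were called lower on day 4 in mixture libraries and 0 in copper, arsenic and control libraries, beside 6.67% of all genes called lower in mixture, 0.589% in copper, 0.304% in arsenic and 0.246% in control libraries. Tested directly, the change between days differed between treatments for 0 genes of the whole table in each of 6 pairs of treatments. At an unadjusted p under 0.05 these pairs gave 438 to 2582 genes, the 2582 being for mixture against arsenic, where 35.2% of the 145 were under 0.05. The treatments are not shown to differ.

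The exposure tests of days 2 and 4 called few genes of the whole table with edgeR, and none of these lists. Copper, arsenic and mixture were each compared with the controls of the same day, so the 3 comparisons of a day share their controls. On day 2 they called 0, 0 and 33 genes (0.213%) of all, and on day 4 they called 4 (0.0259%), 5 (0.0323%) and 3 (0.0194%), by edgeR at an adjusted p under 0.05. Of the 216 genes of the wider lists 0 were among them, and DESeq2's Wald test called 2. With so small a share of all genes called, 0 of 216 says little about these genes. The median log2 change of the 145 lower genes was -0.13 for copper, -0.16 for arsenic and -0.31 for mixture on day 2, and 0.09 for copper, -0.36 for arsenic and 0.02 for mixture on day 4. At an unadjusted p under 0.05 there were 39 of the 145 (26.9%) for mixture on day 2, beside 2196 of all genes (14.2%). For arsenic on day 4 there were 45 (31.0%), beside 1779 of all genes (11.5%). The other 4 comparisons had 3 to 7 of the 145. On day 2 these were 4.14% beside 2.12% of all genes for copper and 3.45% beside 4.97% for arsenic. On day 4 they were 4.83% beside 4.01% for copper and 2.07% beside 4.24% for mixture. Of the 33 lower genes, 15.2% were under 0.05 for copper, 0% for arsenic and 12.1% for mixture on day 2. On day 4 they were 6.06%, 30.3% and 3.03% in the same order.

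By group, arsenic libraries were lowest over the 33 lower genes on day 4. The 33 averaged 4.14 ± 0.12 log2 CPM in copper, 3.50 ± 0.28 in arsenic, 3.91 ± 0.29 in mixture and 3.97 ± 0.38 in control libraries (SD, n = 4 each). On day 2 they averaged 3.57 ± 0.38 in copper, 3.62 ± 0.31 in arsenic, 3.56 ± 0.34 in mixture and 3.89 ± 0.25 in control libraries. On day 1, where each group mixes both sets, the SD was 0.58 to 0.87, larger than in any later group. The 33 were chosen for their gap between the sets, so a wide day-1 SD follows from that choice.

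Between later libraries of a group, the spread of the 2-fold lists was above that of all genes at the median. The median biological coefficient of variation over days 2 and 4 was 30.3% for the 7 higher and 27.7% for the 33 lower genes, against 19.2% for all genes. In the wider lists it was 19.0% for the 71 higher and 20.4% for the 145 lower genes, close to that of all genes. Yet only 9.86% of the 71 and 8.28% of the 145 lay above 30.0%, the upper quartile of all genes. For the 7 and the 33 these shares were 57.1% and 30.3%. The part of this spread in the calls of day 4 against day 2 was not tested. The lists differ in abundance from all genes, and the part of abundance in this spread was not tested.

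The day-1 exposure comparisons were fitted with and without a term for the set. The term comes from these same values, so what it changes is a description. With the set in the model the common biological coefficient of variation of day 1 was 22.5%, against 26.3% without it and 21.6% on days 2 and 4. With it, copper called 2 genes (0.0132%), arsenic 2 (0.0132%) and mixture 3 (0.0199%) against control, and without it 0, 2 and 2. Of these calls 0 fell on the 216 genes, which says little with so few calls. The named genes kept their direction in both fits. Dapma7bEVm004921t1 averaged 208 ± 54.5 CPM in copper and 141 ± 38.6 CPM in control libraries (SD, n = 4 each), a log2 change of 0.73 with the term and 0.56 without it, where its own set difference was -0.63. Dapma7bEVm004267t1, with a set difference of -0.12, changed by 0.95 with the term and 0.92 without it in copper, and by 1.12 and 1.09 in arsenic. The other named genes had log2 changes of -0.99 and -1.03 (Dapma7bEVm010823t1, arsenic), 1.37 and 1.36 (Dapma7bEVm002921t1, mixture) and 0.86 with and without the term (Dapma7bEVm000727t1, mixture). The 7 calls with the term became 0 without control replicate 4, 1 without control replicate 3, 2 without arsenic replicate 1 and 3 without any 1 mixture library. They became 4 without control replicate 2, copper replicate 2 or copper replicate 3, 13 without arsenic replicate 4 and 17 without copper replicate 4.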

How the data were processed

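The deposited table holds 1 whole-number count per gene and library, for 16066 genes and 48 libraries. TopHat2 2.1.1, HTSeq and edgeR are listed, without role or order, per the submitters' processing notes. Build, annotation and strand: not given in the sources used here. Although its name calls the table normalised, the values had the pattern of raw counts: a score of gaps and pile-ups among low values was at most 5.41 as deposited, against at least 7.58 after multiplying by 0.95 and rounding. Totals ran from 7.93 to 20.1 M (M, mega).

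The 6 libraries, the gene lists and the tests were chosen with earlier results of these data known. The tests used edgeR 4.0.16 under R 4.3.3 (TMM factors, quasi-likelihood F test, two-sided, Benjamini-Hochberg, adjusted p under 0.05). Genes needed 14 counts (1 CPM for a median library of 13.3 M) in 4 libraries of the fit: 15112 passed on day 1 and 15459 on days 2 and 4, where all 40 genes passed. Day 1 was fitted with set and treatment, days 2 and 4 with 8 groups, leaving 24 residual degrees of freedom. Levels are CPM after TMM; log2 levels add a prior count of 2.

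Named genes were the 2 largest folds a side among genes of at least 10 CPM, waived for higher genes, and for days the 2 largest called changes a side; for day-1 exposures, the 2 smallest adjusted p a side. Library pairs within groups all differed beyond counting noise (smallest chi-square over its degrees of freedom 10.1). Alternatives were DESeq2 1.42.0 size factors and Wald test, library totals, no filter, other terms, all 48 libraries, a replicate block and leaving out each library. The 1.5-fold lists as read on later days, the choice without control replicate 4 and the contrasts per treatment were added after seeing the data.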

Additional observations from a re-analysis of the deposited data

Results flagged for a closer look

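Of 120 checks of a group for a library far from the others, 12 stood out, where chance gives about 1 in 20, or 6. On day 1, control replicate 4 stood out among the 6 split-off libraries: at 3.53 log2 CPM over the 7 higher genes, with the next at 2.87, at 8.46 CPM for Dapma7bEVm016193t1, with the next at 4.16, and at 21.4 CPM for Dapma7bEVm007775t1, with the next at 10.5. Among the remaining 10, control replicate 3 stood out for Dapma7bEVm028896t1 at 167 CPM, with the next at 116.

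On day 4, mixture replicate 1 stood out over the 7 higher genes at 2.55 log2 CPM, with the next of its group at 1.63. Mixture replicate 4 of day 4 had 183 CPM of Dapma7bEVm028896t1, with the next at 126, and control replicate 3 of day 4 had 92.7 CPM, with the next at 132. On day 2, arsenic replicate 4 stood out over the 33 lower genes at 3.16 log2 CPM, with the next of its group at 3.75.

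The total of control replicate 2 of day 4 was 15.8 M counts (M, mega), with the next at 12.3 M. Genes without a count numbered 152 in arsenic replicate 1 of day 2 (next 75), 89 in copper replicate 4 of day 2 (next 73) and 90 in control replicate 4 of day 2 (next 46).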

How the results depend on the processing

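The fold changes of named genes that were rerun, and the medians of the wider lists between days 2 and 4, kept their sign under every alternative run. The change of Dapma7bEVm028896t1 between those days and all other list medians were not rerun. The comparison of 2 lists with all genes did turn with all 48 libraries in the fit. That fit has no term for the set, so the day-1 gap by which the genes were chosen counts as spread. The share called higher was then 6.06% of the 33, under 12.5% of all genes. The share called lower was 8.45% of the 71, under 11.7% of all genes. The 7 higher and 33 lower genes became 71 and 145 at a fold of 1.5 and 12 and 20 with library totals alone, and the 7 became 4 without the treatment term. With single libraries left out they ran from 6 to 17 and from 27 to 99. In the comparison of day 4 with day 2, all 48 libraries in the fit gave 6 in place of 17 falls on the wider higher list. On the 2-fold lower list that fit gave 2 in place of 8 rises. Higher genes chosen without control replicate 4 gave 10 falls, among 60 genes in place of 71. With single libraries left out the 17 ran from 9 to 22, the 8 from 5 to 11, the 61 from 49 to 71, the 2325 from 1972 to 2471 and the 2026 from 1747 to 2355. The 7 exposure calls of day 1 became 71 with DESeq2's Wald test and 4 without the set term, and ran from 0 to 17 with libraries left out. The 45 exposure calls of days 2 and 4 became 206 with DESeq2's Wald test and ran from 11 to 113. They became 11, 19 and 22 without control replicates 3, 4 and 2 of day 2, 12 without mixture replicate 1 or 2 of day 2, 87 and 113 without mixture replicates 4 and 3 of day 2, 26 without arsenic replicate 1 or 4 of day 4, 27 without arsenic replicate 3, 28 without copper replicate 1, 29 without mixture replicate 4, and 22, 25 and 80 without control replicates 1, 4 and 3 of day 4. The 0 calls on the lists became 2 with DESeq2 and were 0 with any library left out. The cause of these moves was not tested. Replicate numbers did not pair the libraries: the median correlation was 0.0029 over 112 pairs of days 2 and 4 and 0.027 over 24 pairs of day 1, with 20 and 5 pairs over 0.1, and 10 of 32 and 5 of 16 libraries were nearest to their own number. A replicate block gave 2281 rises and 1964 falls on day 4 against day 2, 61, 17 and 8 on the lists, 14 exposure calls on day 1 and 21 on days 2 and 4. A count of 0 allows 3 counts, 0.15 CPM in the deepest and 0.378 CPM in the shallowest library, for counting error only.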
